A study of Mus musculus with 10 samples.

Results

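10 enzymes of the mevalonate and sterol pathway were followed in mouse liver, namely Mvk, Mvd, Fdps, Ggps1, Lss, Cyp51, Msmo1, Hsd17b7, Sc5d and Dhcr7. They were taken by name from the pathway, with earlier results of these data known. The measured pathway genes Nsdhl, Pmvk and Tm7sf2 were left out, and each passed the threshold used below in every comparison with a wild type. The absence of calls among the 10 enzymes is therefore not a result for the pathway as a whole. Every probe set that the platform's annotation ties to 1 of the 10 was kept. That gave 16 probe sets among the 11868 tested, or 10 genes among the 5928 measured, and no probe set of these enzymes was shared with another gene.

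Pooled liver RNA from male mice was hybridised to Affymetrix U74Cv2 arrays, 2 for each of 5 groups. The first study held TgSREBP-1a and TgSREBP-2 mice, which overexpress the active nuclear form of the human factor, and wild-type littermates (SREBP wild type), aged 12 to 16 weeks and kept for 2 weeks on a diet high in protein and low in carbohydrate, chosen to drive the transgenes strongly. The second study compared Scap-/- mice, in which MX1-Cre deletes Scap after poly(I:C), with Scap wild type mice, both aged 10 to 12 weeks, on chow and injected 4 times, with livers collected 14 days after the final dose. A group's 2 arrays carried the same RNA, equal amounts from 5 mice pooled to 20 µg, so all SDs, intervals and p-values below reflect repeat hybridisation and say nothing of how mice vary. The deletion is described as specific to the liver, although MX1-Cre is known to act in other cells that respond to interferon, and the labels name neither the promoter of the transgenes nor whether the Scap wild type mice carry Cre. Scap, Srebf1 and Srebf2 themselves were looked up and had no probe set annotated to them alone, so the genotypes were not checked on the altered genes. All values below are RMA signals or differences of them on the log2 scale, a level belongs to its own probe set, and levels of different probe sets are not compared.

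Cholesterol is built from acetyl-CoA by way of mevalonate, which is phosphorylated and decarboxylated to isoprene units. These are joined to farnesyl diphosphate and then to squalene, and the sterol rings are closed at lanosterol and trimmed to cholesterol. SREBP-2 and SREBP-1a can both switch on the genes of this pathway. SCAP is the escort protein that carries SREBPs from the endoplasmic reticulum to the Golgi, where they are cut to their nuclear form. In the liver this system answers to the cell's sterol content.

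The 16 probe sets differ in what they can show. A probe set was counted as too dim to judge where its mean over the 10 arrays lay below 4.74, the median of such means over all tested probe sets, and those with the suffix _r_at, _i_at or _f_at were marked, since their probes were picked under relaxed rules, are fewer than usual or match a gene family. By these rules 5 probe sets of 4 genes (Lss, Cyp51, Hsd17b7 and Ggps1) were readable, 5 were bright enough but of a marked type (Mvd, Dhcr7, Fdps, Ggps1 and Msmo1), 2 were dim (Fdps and Msmo1) and 4 were both (Mvk, Sc5d, Lss and Msmo1). The readable ones were not bright, apart from Hsd17b7 137718_at, whose mean of 7.30 exceeded 90.2% of probe sets. Those of Lss (5.21), Cyp51 (5.17), the second of Hsd17b7 (5.02) and Ggps1 (4.91) exceeded between 53.4% and 58.8%. Neither a dim signal nor a marked suffix shows that a transcript is missing. The serum protein genes Ahsg and Serpina1a, abundantly transcribed by hepatocytes, had probe sets with means of 2.86 and 3.43, and the _f_at probe sets of the pathway genes Nsdhl and Pmvk differed by 3.50 and 3.05 in TgSREBP-2.

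Of 21 hepatocyte markers, 6 were measured and none was past the threshold in any comparison, with Fga at -1.04 in TgSREBP-1a (limma adjusted p = 0.0665); Hpx (10.59), Fga (8.88), Apoh (8.11) and Tdo2 (7.73) were well lit. The summed signal of the 6 measured of 12 pancreatic acinar markers was 9.79 to 10.43 in SREBP wild type, 7.18 to 7.25 in TgSREBP-1a, 10.72 to 11.04 in TgSREBP-2, 8.87 to 8.90 in Scap wild type and 7.13 to 7.25 in Scap-/-, with Cpb1 (2.97) and Amy2a5 (2.90) dim. That of the 2 measured of 9 macrophage markers (Vsig4 and Laptm5) was 8.88 to 9.29 in SREBP wild type, 10.11 to 10.20 in TgSREBP-1a and 9.62 to 9.75 in TgSREBP-2. The 2 measured of 5 bile duct markers (Epcam and Sox9) summed to 8.91 to 9.004, 8.63 and 8.65 to 8.67 in the same groups. The array medians lay between 4.69 and 4.77, duplicates correlated at 0.992 to 0.995 across probe sets, and 6 of the 10 arrays were closer to an array of another group than to their duplicate.

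The 250 bases before the start sites of the 3 enzymes that the results turn on are shown here, because Lss and Cyp51 had the largest differences from SREBP wild type among the readable probe sets in both transgenics and Hsd17b7 was the one gene with 2 readable probe sets. They are from RefSeq (GRCm38.p6), read in the direction of the gene. Capitals mark the CCAAT box (CCAAT, or ATTGG on the other strand), to which NF-Y, a partner of SREBPs on many sterol genes, binds, and the letters ATCACCNCA, the start of the classical sterol regulatory element.
Lss, chr10:76531355-76531604, plus strand: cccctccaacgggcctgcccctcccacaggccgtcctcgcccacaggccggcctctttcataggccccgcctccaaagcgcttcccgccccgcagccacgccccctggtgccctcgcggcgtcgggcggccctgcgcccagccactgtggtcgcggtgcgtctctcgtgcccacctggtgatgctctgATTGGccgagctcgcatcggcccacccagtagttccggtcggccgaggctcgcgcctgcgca
Cyp51, chr5:4104698-4104947, minus strand: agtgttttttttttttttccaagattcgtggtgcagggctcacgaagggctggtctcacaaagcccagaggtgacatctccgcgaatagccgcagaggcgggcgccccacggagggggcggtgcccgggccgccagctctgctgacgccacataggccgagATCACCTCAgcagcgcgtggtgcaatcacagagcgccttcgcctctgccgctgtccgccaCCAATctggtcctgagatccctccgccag
Hsd17b7, chr1:169969206-169969455, minus strand: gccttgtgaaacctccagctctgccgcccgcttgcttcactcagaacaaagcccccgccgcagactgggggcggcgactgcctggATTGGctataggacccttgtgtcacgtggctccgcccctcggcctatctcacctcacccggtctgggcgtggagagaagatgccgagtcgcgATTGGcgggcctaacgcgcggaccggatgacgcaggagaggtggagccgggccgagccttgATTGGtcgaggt
A CCAAT box began 62 bases before the start of Lss and 29 bases before that of Cyp51, and Hsd17b7 held 3, at 165, 73 and 12 bases. All 9 enzymes with a RefSeq window (Fdps was without a window) held at least 1 on either strand, against 37.5% of 27025 genes. The letters ATCACCNCA were in 1 of them, Cyp51, at 89 bases before the start, and in 0.740% of genes, and the full-length SRE-1, searched as well, was in none of the 9 and in 0.0814% of genes. The motifs were searched on both strands and chosen after the sequences were seen, and a match is only a description. The E-box CACGTG was in 3 of the 9, namely Hsd17b7, Sc5d and Dhcr7, and in 6.86% of genes. The GC box GGGCGG, also searched, was in 8 of the 9 and in 35.4% of genes.

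None of the 16 probe sets was called in any comparison, where a call needed a limma adjusted p under 0.05 (Benjamini-Hochberg, over all 11868 probe sets) and a difference of at least 1.5-fold. The same rule called 0.0843% of all probe sets in Scap-/-, 1.04% in TgSREBP-1a, 0.118% in TgSREBP-2 and 0.514% between the transgenics. Among the readable probe sets, Cyp51 and Lss in the transgenics were the nearest to a call. The marked Fdps 165982_i_at, lower in TgSREBP-1a, had a smaller limma adjusted p there (0.139) than Cyp51 (0.163). The dim and marked Sc5d was at 0.242 in TgSREBP-2, where Lss was at 0.126. Cyp51 was at 2.2-fold in TgSREBP-2 and 1.61-fold in TgSREBP-1a over SREBP wild type, and Lss at 1.45-fold and 1.42-fold. Hsd17b7, with a brighter readable probe set, had intervals inside 1.5-fold in each comparison. So did most of the 16 probe sets, dim ones among them. These were 15 in Scap-/-, 12 in TgSREBP-1a, 13 in TgSREBP-2 and 14 between the transgenics.

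**Figure D1:**
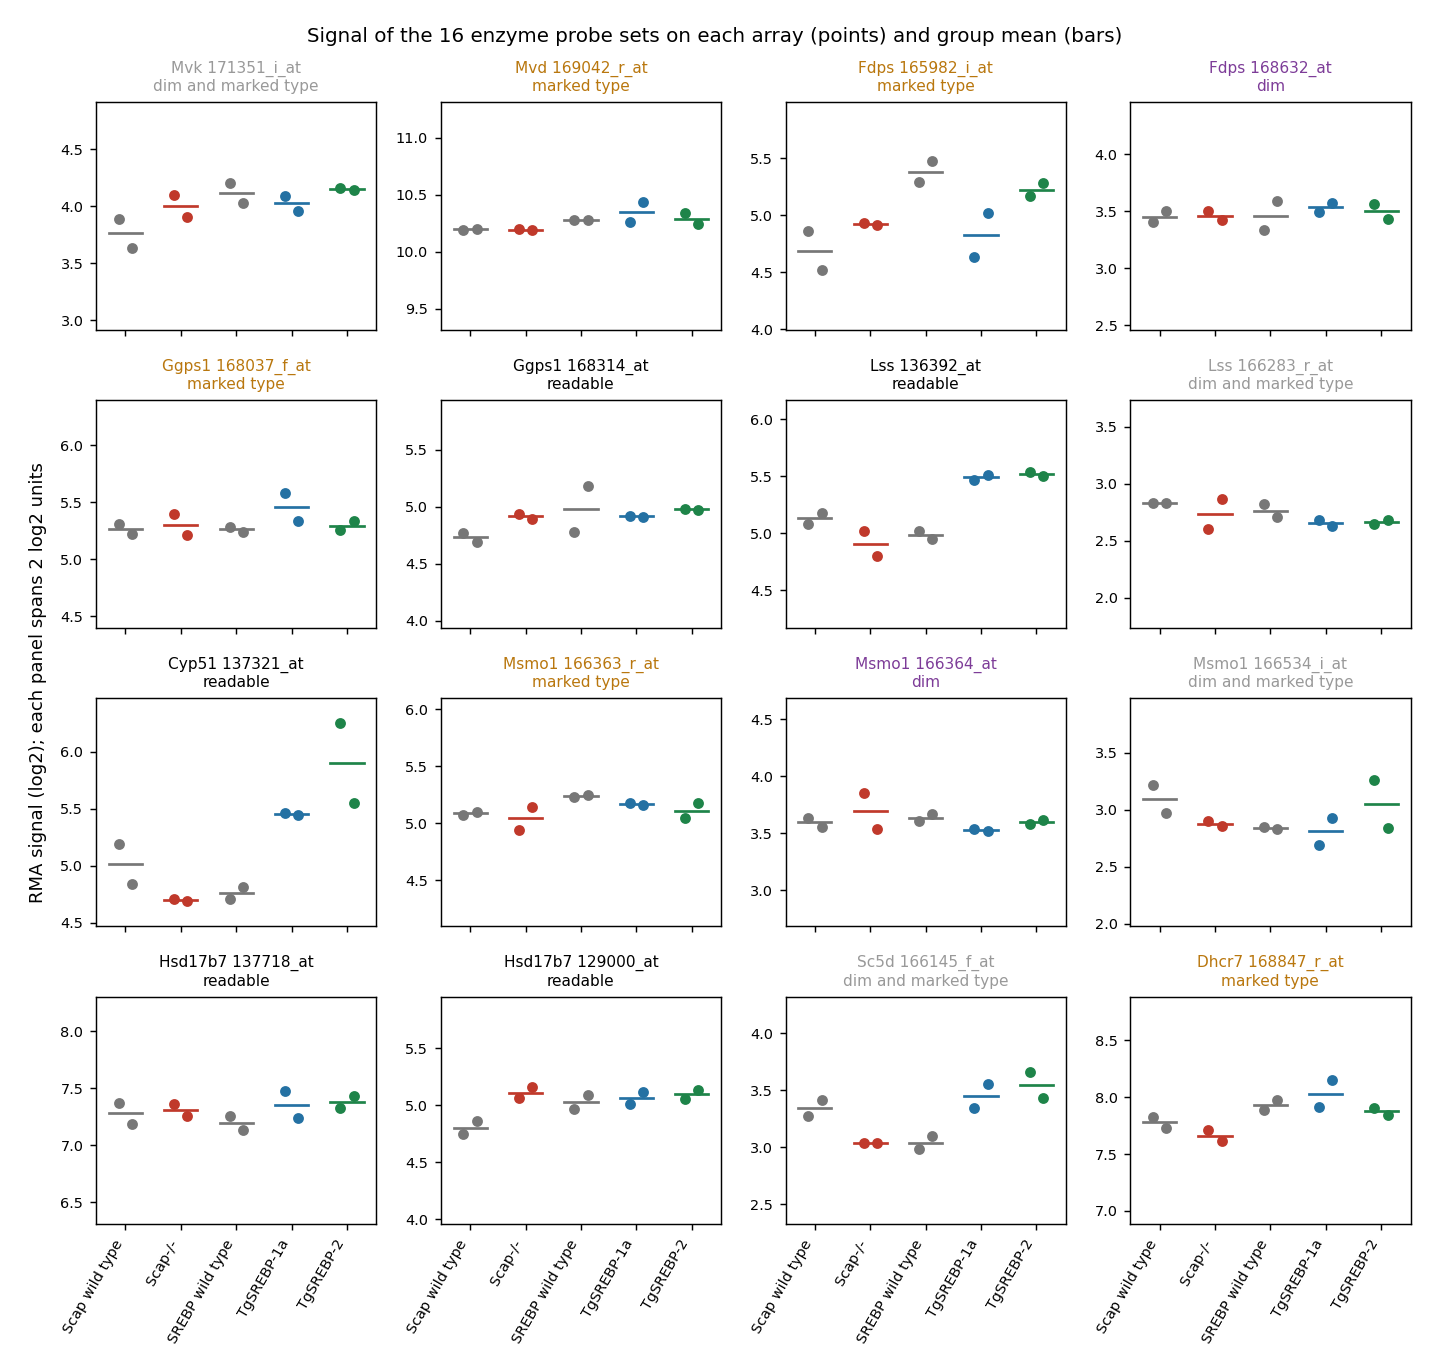
Signal of each of the 16 enzyme probe sets on every array (y axis, log2; points are arrays, bars the group mean of 2 hybridisations, and every panel spans 2 log2 units). Lss 136392_at and Cyp51 137321_at stand higher in both transgenic pools than in the SREBP wild type, while the panels of Mvd and Hsd17b7 137718_at, among others, are nearly flat.

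The early, mevalonate part of the pathway was covered by marked or dim probe sets alone. Mvd, mevalonate diphosphate decarboxylase, which yields the isoprene unit, was bright at 169042_r_at (above 99.8% of probe sets) and nearly level, its group means spanning 0.16. It read 10.27 and 10.28 in SREBP wild type, 10.26 and 10.44 in TgSREBP-1a, and 10.34 and 10.24 in TgSREBP-2. The Scap arrays lay between 10.19 and 10.20. Its differences were 0.07 (interval -0.14 to 0.28) in TgSREBP-1a, 0.01 (-0.20 to 0.22) in TgSREBP-2 and -0.003 (-0.21 to 0.21) in Scap-/-. Mvk, mevalonate kinase, which adds the first phosphate, was both dim and of _i_at type (3.63 to 4.20) and differed by -0.09, 0.04 and 0.24 in the same order, none of them past the threshold.

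Fdps, farnesyl diphosphate synthase, makes the branch point from which sterols and isoprenoid side products part. At 165982_i_at the signal was 5.29 and 5.48 in SREBP wild type, 4.64 and 5.02 in TgSREBP-1a and 5.17 and 5.28 in TgSREBP-2. TgSREBP-1a was thus below its wild type on both arrays, in the direction opposite to Lss and Cyp51. The difference of -0.55 (SE 0.146, interval -0.87 to -0.23) did not pass (adjusted p = 0.139), and that of TgSREBP-2 was -0.16 (-0.48 to 0.16). Without TgSREBP-1a replicate 1 or 2 the former was -0.36 or -0.75. In Scap-/- Fdps read 4.93 and 4.92 against 4.86 and 4.52, a difference of 0.24. The plain probe set 168632_at, dim throughout (3.33 to 3.59), differed by 0.07, 0.04 and 0.005 in TgSREBP-1a, TgSREBP-2 and Scap-/-, and so did not show the lower value.

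Ggps1 makes geranylgeranyl diphosphate, used to attach lipid anchors to proteins, and so stands on a side branch of the pathway. Its readable probe set 168314_at read 4.92 and 4.91 in TgSREBP-1a and 4.98 and 4.97 in TgSREBP-2, and 4.94 and 4.89 in Scap-/- against 4.77 and 4.69 in Scap wild type. The SREBP wild type arrays, at 4.78 and 5.18, lay on either side of both transgenics, while both Scap-/- arrays were above their wild type. The differences were -0.06 (interval -0.33 to 0.20) and -0.002 (-0.27 to 0.27), and that in Scap-/- was 0.18 (-0.08 to 0.45). The marked probe set 168037_f_at differed by 0.20 in TgSREBP-1a, 0.03 in TgSREBP-2 and 0.04 in Scap-/-. None of the 6 differences passed (adjusted p from 0.662 to 0.999).

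Lss, lanosterol synthase, closes the sterol rings. At 136392_at its signal was 5.02 and 4.95 in SREBP wild type, 5.47 and 5.52 in TgSREBP-1a, and 5.54 and 5.50 in TgSREBP-2. It was 5.02 and 4.80 in Scap-/- and 5.09 and 5.18 in Scap wild type. The transgenics overlapped each other and lay above every array of the other 3 groups, and Scap-/- overlapped SREBP wild type at the low end.

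Against SREBP wild type, the signal of Lss was higher by 0.51 in TgSREBP-1a (1.42-fold, SE 0.101, interval 0.29 to 0.73) and by 0.54 in TgSREBP-2 (1.45-fold, interval 0.31 to 0.76). The former passed the adjustment (adjusted p = 0.0388) but not the required 1.5-fold difference, and the latter did not pass (adjusted p = 0.126, the 22nd smallest p). With every array left out in turn, Lss stayed between 0.47 and 0.54 in TgSREBP-1a and between 0.50 and 0.57 in TgSREBP-2, but the adjusted p for TgSREBP-1a stayed under 0.05 only without either Scap-/- array (0.0247) and was 0.0526 to 0.28 without any other single array. In Scap-/- it differed by -0.22 (interval -0.45 to -0.002, adjusted p = 0.999), with -0.12 to -0.33 when single arrays were left out. The acinar sum was lower in TgSREBP-1a and Scap-/- and higher in TgSREBP-2, and the signals of Lss and Cyp51 were higher in both transgenics and lower in Scap-/- (neither called). The macrophage sum was also higher in both transgenics, with Vsig4 and Laptm5 called in TgSREBP-1a (1.14 and 1.05) but not in TgSREBP-2 (0.74 and 0.54). On the Scap arrays that sum overlapped, at 9.36 to 9.78 in Scap-/- and 9.45 to 9.63 in Scap wild type. Of the bile duct markers Epcam was lower in both transgenics (-0.63, called in TgSREBP-1a, and -0.54, not called in TgSREBP-2). Sox9 was at 0.24 and 0.18, neither called. The part of these cell types in the enzymes' values was not tested. Since these are whole livers, a change in the share of a cell type and a change in RNA per cell cannot be told apart.

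The other Lss probe set, 166283_r_at, was both dim (2.60 to 2.86 over all arrays, above 3.49% of probe sets) and of a marked type. It differed by -0.11 in TgSREBP-1a and -0.10 in TgSREBP-2, and did not show the higher signal of the readable one.

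Cyp51, the demethylase that acts on lanosterol next, had the widest span of group means among the 16 probe sets (1.205). Its signal at 137321_at was 4.71 and 4.81 in SREBP wild type, 5.46 and 5.44 in TgSREBP-1a and 6.25 and 5.55 in TgSREBP-2. On the Scap arrays it was 4.71 and 4.69 in Scap-/- against 5.19 and 4.84 in Scap wild type. Every array of either transgenic thus lay above both wild-type arrays, and both Scap-/- arrays below their own wild type. The neighbouring groups in the order of levels were all apart, from TgSREBP-2 down through TgSREBP-1a, Scap wild type and SREBP wild type to Scap-/-, although the last gap, at 4.71 on both sides, is under the rounding used here. The share of all probe sets with every neighbour apart was not counted, so this is a description alone. All steps but the first also cross between the studies, which differ in diet, age and injections.

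The difference of Cyp51 from SREBP wild type was 1.14 in TgSREBP-2 (2.2-fold, SE 0.187, limma 95% interval 0.73 to 1.55) and 0.69 in TgSREBP-1a (1.61-fold, 0.28 to 1.10). Neither passed the adjustment over all 11868 probe sets (adjusted p = 0.0575 and 0.163). In TgSREBP-2 its p was the 15th smallest, the next after the 14 that were called. The value depended on which TgSREBP-2 array was used: without replicate 1 the difference was 0.79 (adjusted p = 0.302), and without replicate 2 it was 1.49 (adjusted p = 0.00291), with a range of 0.00291 to 0.302 over 21 alternatives, of which 3 called it. The signal of the 18S rRNA control at its 3' probe set differed between the same 2 arrays (7.19 in replicate 1 and 9.36 in replicate 2), and its part in the Cyp51 value was not tested. That control was higher on replicate 2 in every group, at 7.19 and 9.16 in TgSREBP-1a, 7.73 and 9.88 in SREBP wild type, 7.88 and 9.44 in Scap-/- and 8.03 and 8.21 in Scap wild type. In TgSREBP-1a the difference was 0.64 to 0.74 with single arrays left out, and stayed at 0.69 without either TgSREBP-2 array. For each probe set the fit shares 1 estimate of spread over the 5 groups. The gap between the TgSREBP-2 arrays (6.25 and 5.55) therefore also enters the SE of the TgSREBP-1a difference. The arrays of TgSREBP-1a (5.46 and 5.44) and SREBP wild type (4.71 and 4.81) lay closer together. In Scap-/- Cyp51 differed by -0.32 (interval -0.73 to 0.09, adjusted p = 0.999), or by -0.15 without Scap wild type replicate 1 or -0.49 without replicate 2.

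Msmo1, the methylsterol oxidase that acts after Cyp51, had 3 probe sets, none of them readable. At 166363_r_at it read 5.23 and 5.25 in SREBP wild type, 5.18 and 5.16 in TgSREBP-1a and 5.04 and 5.18 in TgSREBP-2. Both transgenics lay below the wild type, by 0.07 and 0.13 (differences of -0.07 and -0.13, intervals -0.29 to 0.15 and -0.35 to 0.09). The dim probe sets 166364_at and 166534_i_at stayed between 2.70 and 3.85, and their differences in the transgenics lay between -0.11 and 0.21. In Scap-/- the 3 probe sets differed by -0.04 at 166363_r_at, 0.10 at 166364_at and -0.22 at 166534_i_at. At the last the Scap-/- arrays, at 2.90 and 2.86, lay below the wild type arrays at 3.22 and 2.97 (adjusted p = 0.999).

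Hsd17b7, a keto reductase that takes part in removing the ring methyl groups after Cyp51, had 2 readable probe sets. At the brighter, 137718_at, the signal was 7.25 and 7.13 in SREBP wild type, 7.48 and 7.24 in TgSREBP-1a and 7.33 and 7.43 in TgSREBP-2. It was 7.36 and 7.26 in Scap-/- and 7.37 and 7.19 in Scap wild type. No neighbouring groups in its order were apart, although both TgSREBP-2 arrays were above SREBP wild type.

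The differences at 137718_at were 0.16 in TgSREBP-1a (interval -0.09 to 0.41), 0.19 in TgSREBP-2 (-0.07 to 0.44) and 0.03 in Scap-/- (-0.22 to 0.28), with adjusted p of 0.74, 0.865 and 0.999. A 1.5-fold difference (0.58 on the log2 scale) therefore lay outside all 3 intervals, as far as the spread between hybridisations goes. At 129000_at the differences in the transgenics were 0.04 (-0.17 to 0.26) and 0.07 (-0.15 to 0.28). In Scap-/- that probe set read 5.06 and 5.15 against 4.75 and 4.86 in Scap wild type, a difference of 0.30 (interval 0.09 to 0.52, unadjusted p = 0.00993, adjusted p = 0.999). The brighter probe set of the gene gave 0.03 in the same comparison, so that the higher signal was not seen at both.

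Sc5d, the desaturase that places a double bond in the sterol ring, was measured by 166145_f_at alone, which was dim and matches a family. It read 2.98 and 3.09 in SREBP wild type, 3.34 and 3.55 in TgSREBP-1a and 3.66 and 3.43 in TgSREBP-2, and 3.03 and 3.04 in Scap-/- against 3.28 and 3.41 in Scap wild type. The order of the groups was that of Lss and Cyp51, with differences of 0.41 (interval 0.16 to 0.66, adjusted p = 0.18), 0.50 (0.25 to 0.76, adjusted p = 0.242) and -0.31 (-0.56 to -0.06, adjusted p = 0.999). At this signal the size of a difference cannot be judged. Dhcr7, the last reductase on one route to cholesterol, was bright at 168847_r_at (above 94.4% of probe sets), at 7.89 and 7.97 in SREBP wild type, 7.91 and 8.15 in TgSREBP-1a, 7.90 and 7.84 in TgSREBP-2, 7.71 and 7.61 in Scap-/- and 7.83 and 7.73 in Scap wild type. Its differences of 0.10, -0.06 and -0.12 in TgSREBP-1a, TgSREBP-2 and Scap-/- had intervals that lay inside 1.5-fold.

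**Figure D2:**
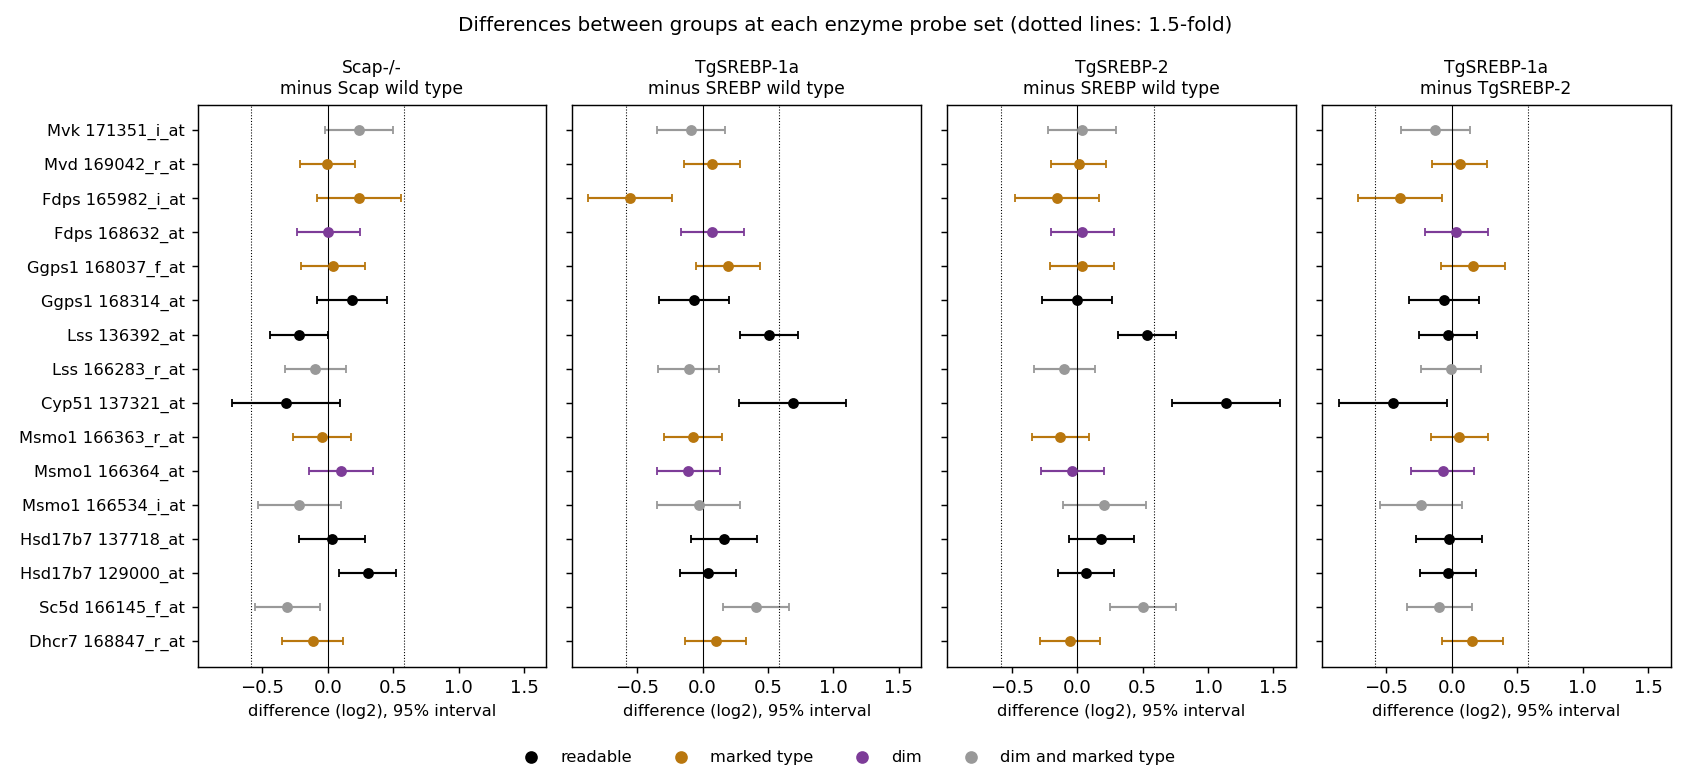
Differences between groups (x axis, log2) with limma 95% intervals for the 16 probe sets in the 4 comparisons; colours give whether a probe set was readable, of a marked type, dim or both, and dotted lines stand at 1.5-fold. Only the interval of Cyp51 in TgSREBP-2 (0.73 to 1.55) lies wholly beyond a dotted line.

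Without the fold rule the adjusted p called 1 of the 16, Lss in TgSREBP-1a, against 1.09% of all, and none in Scap-/-, TgSREBP-2 or between the transgenics, against 0.0843%, 0.118% and 0.548%. At an unadjusted p under 0.05 there were 3 in Scap-/-, with Lss and Sc5d lower and Hsd17b7 129000_at higher. There were 4 in TgSREBP-1a (Lss, Cyp51, Sc5d and, lower, Fdps 165982_i_at) and 3 in TgSREBP-2 (Lss, Cyp51 and Sc5d). The shares of all probe sets were 3.8%, 9.4% and 6.34%. The arrays of the groups were apart at 9, 8 and 7 of the 16, against 29.7%, 39.4% and 35% of all. They went both ways, with 4 higher and 5 lower in Scap-/-, 4 and 4 in TgSREBP-1a, and 4 and 3 in TgSREBP-2. The median difference of the 16 was 0.001, 0.06 and 0.04, beside 0.001, -0.03 and -0.01 over all tested probe sets.

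**Figure D3:**
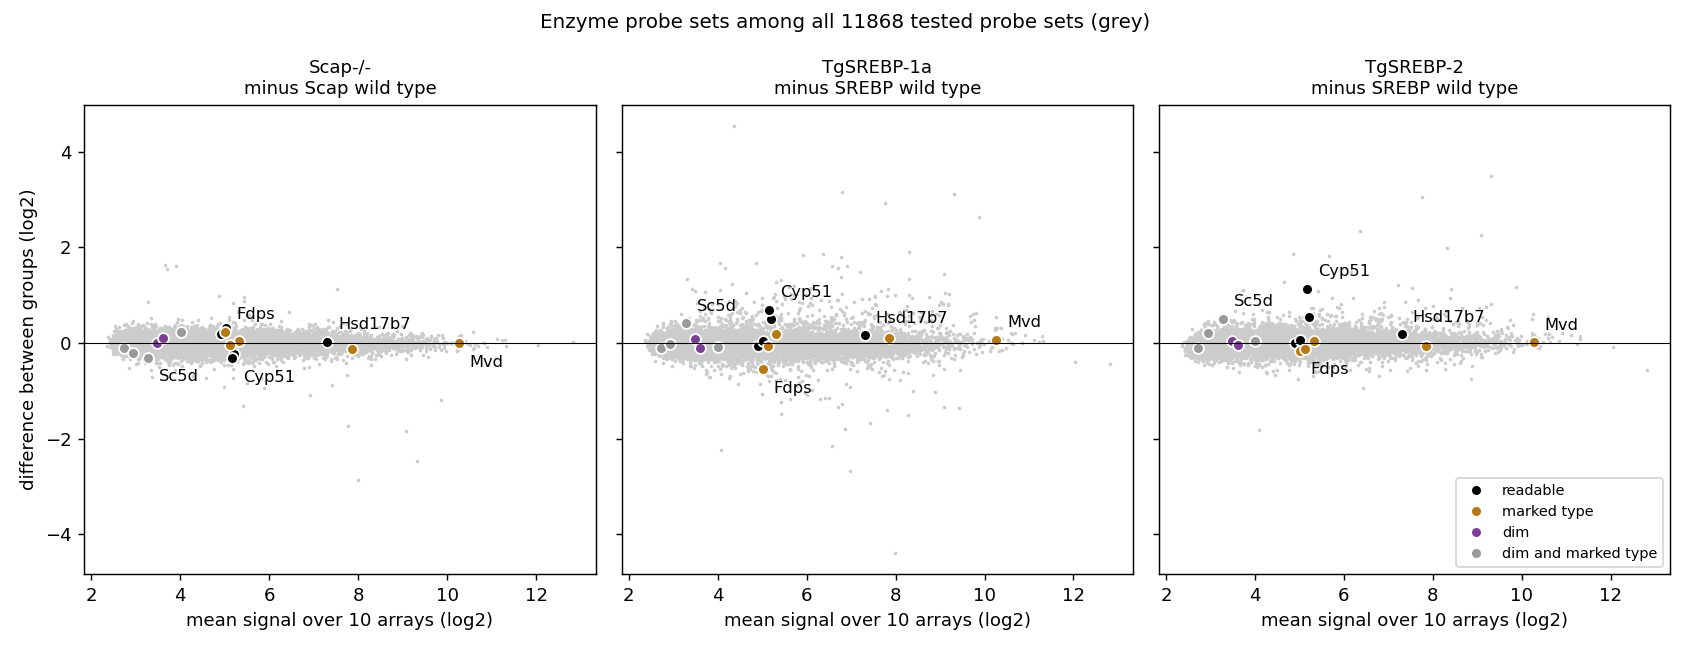
Difference between groups (y axis, log2) against the mean signal over the 10 arrays (x axis, log2) for all 11868 tested probe sets (grey) and the 16 of the enzymes (coloured by type). In both transgenics Cyp51 lies at or above the edge of the grey band at its level (0.69 and 1.14), and most of the other enzyme probe sets lie within it.

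The transgenics were also compared with each other, which tests whether their effects differ, since they share the wild type. Cyp51 was lower in TgSREBP-1a than in TgSREBP-2 by 0.45 (difference -0.45, interval -0.86 to -0.04, unadjusted p = 0.0349, adjusted p = 0.56), and its arrays were apart. Without TgSREBP-2 replicate 1 the difference was -0.10 and without replicate 2 it was -0.80. Lss differed by -0.03 (-0.25 to 0.19), so that a 1.5-fold difference lay outside its interval. Fdps 165982_i_at differed by -0.40 (-0.72 to -0.08, adjusted p = 0.478). Cyp51 and Fdps 165982_i_at were the 2 of the 16 at an unadjusted p under 0.05, against 7.74% of all probe sets. The arrays were apart at 7 of the 16 (2 higher and 5 lower in TgSREBP-1a), against 37%.

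The list of 22 cholesterol synthesis genes had 12 measured members, 9 of them among the enzymes described here. In each of the 3 comparisons with a wild type, 3 of the 12 were called, all lower in Scap-/- and all higher in the transgenics, and they were Nsdhl, Pmvk and Tm7sf2, while the 9 enzymes were not called. The median of the 12 was -0.17 in Scap-/-, 0.29 in TgSREBP-1a and 0.34 in TgSREBP-2. Of 16 genes of the isoprenoid branches, Ggps1, Dhdds, Nus1, Pdss2, Fnta, Pggt1b and Rabggta were measured and none was called, with medians of -0.00045, 0.01 and 0.03. Of the 22 genes of sterol uptake and SREBP control 4 were measured. Abcg8, a subunit of the sterol exporter into bile, was the one called, with 1.35 in TgSREBP-1a and 1.99 in TgSREBP-2. Its probe set is of _r_at type, and in Scap-/- it was at -0.21 and not called. Each of these lists was chosen with earlier results of these data known.

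The order TgSREBP-2, TgSREBP-1a, Scap wild type, SREBP wild type, Scap-/- from high to low, singled out after the values were seen, was that of 3 of the 16 probe sets (Lss 136392_at, Cyp51 and Sc5d) and of 1.06% of all probe sets, and Pmvk and Tm7sf2 had it too while Nsdhl did not. Over the 10 arrays, which come from 5 pools, Lss and Cyp51 correlated at 0.87, and each correlated with Hsd17b7 137718_at at 0.46 and 0.45. Among 372 named probe sets of other genes whose group means spanned at least 1.5-fold, the one most like Lss was Pmvk, phosphomevalonate kinase (Pearson r = 0.970), followed by Knop1 (0.961) and Sik1 (0.931). Most like Cyp51 were Abcg8 (0.962), Sik1 (0.928) and Wnt5a (0.924). For Hsd17b7 137718_at the 3 nearest were Exoc5 (0.826), Mydgf (0.808) and Celf2 (0.791), and for 129000_at they were Ifi27l2b (0.711), Lig3 (0.615) and Lce3f (0.614). For Ggps1 168314_at they were Snrpe (0.800), Clip4 (0.744) and Tmem225 (0.650). The probe sets of Knop1, Wnt5a, Lce3f, Clip4 and Tmem225 were dim, and all of these but Knop1 were also of a marked type. Those of Pmvk, Sik1, Abcg8, Exoc5, Celf2, Lig3 and Snrpe were of a marked type, which leaves Mydgf and Ifi27l2b as the readable ones. These correlations describe arrays that share pools, and Pmvk itself spanned 3.45 between its group means where Lss spanned 0.61.

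**Figure D4:**
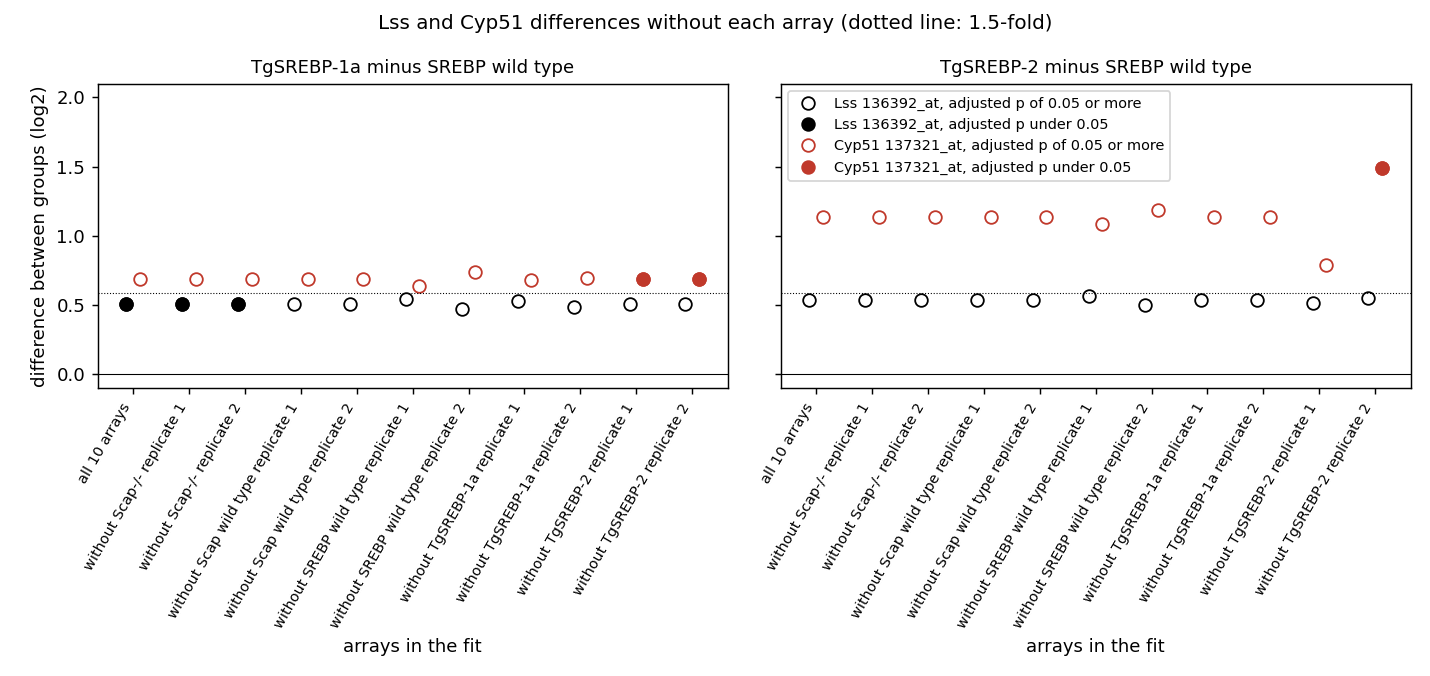
Differences from SREBP wild type (y axis, log2) of Lss 136392_at (black) and Cyp51 137321_at (red) with all 10 arrays and without each in turn (x axis); filled points have a limma adjusted p under 0.05 and the dotted line stands at 1.5-fold. Lss stays between 0.47 and 0.57 in both panels, whereas Cyp51 in TgSREBP-2 moves from 0.79 to 1.49 with the TgSREBP-2 array left out.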

How the data were processed

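Liver RNA pools of 5 groups were measured on 10 arrays. The deposited log2 values are RMA signals per the submitters' processing notes, which give no version. RMA adjusts background, normalises between arrays, combines the probes of a set and compresses differences near background. The design text also names Microarray Suite. The log2 scale was read from the range (2.17 to 13.3). Detection calls were not used here, and the number of arrays limits the precision. Gene names came from the platform annotation, updated through Entrez identifiers to RefSeq symbols, and all 10 enzymes matched. After 66 control probe sets were left out, 11868 were fitted in limma 3.58.1 (R 4.3.3), with 1 fit over the 5 groups, 5 residual and 6.26 prior degrees of freedom, two-sided tests and Benjamini-Hochberg adjustment within each of the 4 comparisons. Intervals are 95% moderated intervals for single probe sets, not adjusted. In lists, the probe set with the highest mean stands for a gene. Named genes were all members and, for each readable probe set, the 3 others most like it; remaining names are those the counts turn on. The procedure was tested on simulated data. The members, lists and tests were chosen with earlier results of these data known. Alternatives were other normalisations, filters, variance models, fold rules, subsets of arrays and a replicate block.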

Additional observations from a re-analysis of the deposited data

How the results depend on the processing

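None of the 16 probe sets was called with all arrays, and of 1284 recomputed differences 6 were past the threshold, all of Lss or Cyp51. Cyp51 in TgSREBP-2 was called with plain _at probe sets alone (adjusted p = 0.0334), with the replicate number as a block (1.14, adjusted p = 0.00941) and without TgSREBP-2 replicate 2, and Cyp51 in TgSREBP-1a without either TgSREBP-2 array. Lss in TgSREBP-1a was called with no fold floor. With the replicate block the probe sets called were 19 in Scap-/-, 186 in TgSREBP-1a, 37 in TgSREBP-2 and 96 between the transgenics, against 10, 123, 14 and 61 without it. The labels give same-numbered arrays nothing but the number in common, and the numbers were not taken as pairs. Of 10 correlations between the groups' deviations 3 were below 0 (lowest -0.17), each of them with TgSREBP-2. The others, which include all those among the remaining groups, were 0.20 to 0.33. The 18S rRNA signal at the 3' probe set was higher on replicate 2 in all 5 groups. At the 5' probe set it was lower on replicate 2 in Scap wild type (5.23 and 5.02). The source of any effect shared by same-numbered arrays was not tested. In the same order the counts were 4, 67, 4 and 36 with plain _at probe sets alone and 6, 47, 9 and 27 with limma's treat against 1.2-fold. The count was 4 in Scap-/- with arrays of the same study, and 59 in TgSREBP-1a and 31 between the transgenics with a 2-fold floor. Without single arrays it ranged from 3 to 11, 40 to 134, 7 to 17 and 23 to 65. With dimness set at the first quartile, 6 probe sets were readable, Msmo1 166364_at being added, and counting any called probe set of a gene left the cholesterol counts at 3, 3, 3 and 0.

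Differences whose sign turned were all small and uncalled. Without single arrays, those in Scap-/- were Mvd -0.0066 to 0.00095, Fdps 168632_at -0.044 to 0.054, Ggps1 168037_f_at -0.055 to 0.132, Lss 166283_r_at -0.228 to 0.034, Msmo1 166363_r_at -0.144 to 0.057, Msmo1 166364_at -0.057 to 0.257 and Hsd17b7 137718_at -0.063 to 0.125. In TgSREBP-1a they were Mvk -0.176 to 0.0011, Mvd -0.016 to 0.162, Fdps 168632_at -0.054 to 0.202, Ggps1 168314_at -0.265 to 0.138, Msmo1 166534_i_at -0.145 to 0.090, Hsd17b7 129000_at -0.019 to 0.10 and Dhcr7 -0.018 to 0.221. In TgSREBP-2 they were Mvk -0.050 to 0.127, Mvd -0.037 to 0.063, Fdps 168632_at -0.088 to 0.167, Ggps1 168037_f_at -0.0031 to 0.070, Ggps1 168314_at -0.203 to 0.199 and Msmo1 166534_i_at -0.0042 to 0.420. Between the transgenics they were Mvd -0.029 to 0.149, Fdps 168632_at -0.029 to 0.099, Lss 166283_r_at -0.035 to 0.019, Msmo1 166363_r_at -0.0088 to 0.124, Hsd17b7 137718_at -0.141 to 0.099, Hsd17b7 129000_at -0.079 to 0.024 and Sc5d -0.210 to 0.018. Quantile normalisation turned Mvd to -0.030 in TgSREBP-1a and -0.153 in TgSREBP-2, and between the transgenics Lss 136392_at to 0.013 and Hsd17b7 129000_at to 0.0025. Median centring turned Mvd to 0.0077 in Scap-/- and, between the transgenics, Lss 166283_r_at to 0.019 and Hsd17b7 137718_at to 0.0059. The cause was not tested.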

Other observations

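The wild types of the studies differ in diet, age, injections and study, which cannot be told apart, and their signals are given here as values alone. Fdps 165982_i_at read 4.86 and 4.52 in Scap wild type and 5.29 and 5.48 in SREBP wild type, a gap as wide as any between a transgenic and its wild type at that probe set. Hsd17b7 129000_at read 4.75 and 4.86 against 4.97 and 5.08, and Sc5d 3.28 and 3.41 against 2.98 and 3.09.

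Cyp46a1, the brain cholesterol hydroxylase, was the 1 measured gene of the 13 in the bile acid synthesis list, and it differed by 0.35 in TgSREBP-2 and -0.17 in TgSREBP-1a from SREBP wild type and by 0.08 in Scap-/- from its wild type, none of them called.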
